A study of Rattus norvegicus with 43 samples.

Results

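Foreskin RNA was compared here between 5 rat litters exposed in utero to dibutyl phthalate at 500 mg/kg/day (DBP500) and 6 corn oil litters of the same study, all taken on gestational day 20 (GD20). These 11 arrays were selected by their labelled study, age and dose out of 43 arrays in the series, and no measured value entered the choice. The dams were Sprague Dawley rats gavaged daily on gestational days 16 to 20, so the corn oil litters carry the vehicle and the handling. Each array held RNA of 2 foreskins pooled from 1 litter, on the Illumina RatRef-12 expression beadchip, so the litter is the replicate and single pups were not measured. For setting these changes against another dose and age, the series also holds 5 litters exposed to 100 mg/kg/day (DBP100) with 6 corn oil litters of their own GD20 study, and 7 DBP500 and 7 corn oil litters on postnatal day 5 (PND5).

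Dibutyl phthalate is a plasticizer whose monoester metabolite is known to lower testosterone synthesis in the fetal rat testis. In the male rat fetus the penis and its foreskin are shaped under androgens, through epithelial folding and signals between epithelium and mesenchyme. The foreskin is a fold of skin: a stratified epithelium over a collagen-rich dermis with smooth muscle, vessels and nerves.

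The skin genes Krt14 and Col1a1 were measured in every litter, and 1 control array stood apart. Probe signals were background-corrected, quantile-normalized over all arrays and log2-transformed, so a level below is a log2 intensity, comparable between litters for the same probe and not between genes, and a difference is DBP500 minus corn oil on that scale. Krt14, a keratin of basal epidermis, averaged 14.21 in DBP500 and 14.26 in corn oil litters, and Col1a1, a chain of type I collagen, averaged 14.23 in DBP500 and 14.21 in corn oil litters. Both were detected on all 11 arrays. Median raw signals were 107.8 to 144.2 units in DBP500 and 102.9 to 145.0 units in corn oil litters, and 10178 to 10799 probes were detected per DBP500 array against 10029 to 10903 per corn oil array. On the first principal component of the 11 arrays (20.1% of the variance), corn oil replicate 6 lay at 39.3 and the other arrays between -11.7 and 15.7. On the second component (15.2%) the 5 DBP500 arrays lay between 7.63 and 18.7 and the 6 corn oil arrays between -23.9 and -1.54. Among genes with a symbol, its strongest weights included skeletal muscle genes such as Myh3 (-0.080). They also included Cck (-0.060), Asns (0.052) and Nupr1 (0.047).

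Single genes of peptide signalling, steroid conversion, lipid desaturation, tight junctions, smooth muscle and extracellular matrix differed between the groups, in small numbers. Of 13577 probes tested, 41 passed an adjusted p under 0.05 in limma's moderated test (0.302%), 24 of them higher (0.177%) and 17 lower (0.125%) in DBP500. Of the 41, 33 carry a gene symbol, with 22 genes higher and 11 lower, each measured by 1 tested probe, and 8 carry none. In 30 of the 41 the groups did not overlap. Among all tested probes, every DBP500 litter lay above every corn oil litter for 0.987% and below for 1.12%. Of the 13577 probes 50.4% were higher and 49.6% lower, with a median difference of 0.0016, and 1003 had an unadjusted p under 0.05. Leaving out 1 array at a time left 22 to 40 probes past the threshold, lowest with corn oil replicate 4 omitted (22), then DBP500 replicate 4 (23) and DBP500 replicate 3 (26). Without corn oil replicate 6, the array that stood apart, 40 passed and 25 of the 33 named genes were among them. With each array shifted to a common median in place of quantile normalization 12 of the 33 were kept, namely Asns, Nupr1, Cck, Cldn4, Pdgfra, Slc26a4, Spock1, Scd, Mia, Dhrs7c, Necab2 and Elovl3. On the authors' processed values the kept genes numbered 19, with the 11 arrays normalized and fitted alone 16, and with all 12 corn oil litters of GD20 as controls 26.

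**Figure D1:**
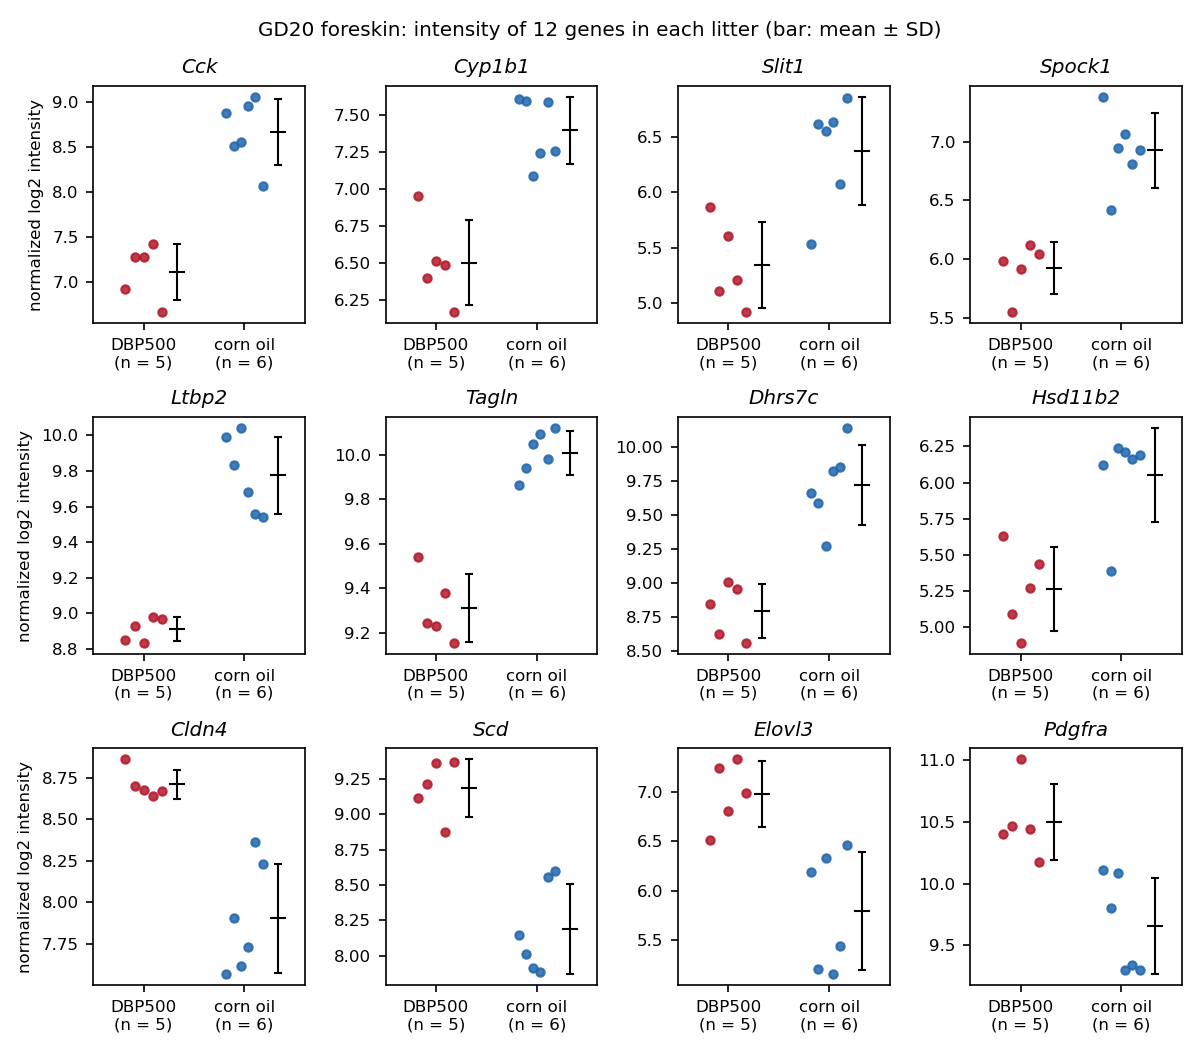
Normalized log2 intensity (y axis, not starting at 0 and scaled for each gene) of 12 genes in the 5 DBP500 litters (red, left) and the 6 corn oil litters (blue, right) on GD20. Each point is 1 litter, and the bars give the mean ± SD. The groups overlap for Slit1 and Hsd11b2 and do not overlap for the other genes shown.

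Among precursors of neuropeptides and peptide hormones, Cck fell and Adm2 rose, and Cck had the largest fall of the genes past the threshold. Cck, the precursor of cholecystokinin, a peptide of gut and brain, had levels of 6.93, 7.29, 7.28, 7.42 and 6.67 in the DBP500 litters, against 8.07 at the lowest, 8.72 at the median and 9.06 at the highest in the corn oil litters. All DBP500 litters were below all corn oil litters, a difference of -1.55 (SE 0.24, adjusted p = 0.000377), or 2.94-fold lower. This call was kept without each array in turn and under all 12 other processing settings. Of the 23 tested precursor genes 10 were higher and 13 lower, with a median of -0.065. Penk, the precursor of enkephalins, differed by -0.73 (adjusted p = 0.105). Pomc, the precursor of melanocortins, differed by -0.48 (adjusted p = 0.283), with all 5 DBP500 litters (5.71 to 6.14) below all corn oil litters (6.28 to 6.78), and it differed by 0.50 in DBP100 at GD20.

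Of the 20 tested genes of steroid conversion and steroid receptors, 2 passed, both lower in DBP500. Cyp1b1, a cytochrome P450 that oxidizes steroids and aromatic compounds, had levels of 6.95, 6.39, 6.51, 6.48 and 6.16 in the DBP500 litters, against 7.09, 7.42 and 7.61 at the lowest, median and highest in the corn oil litters. The groups did not overlap, and the difference of -0.90 (SE 0.16, adjusted p = 0.00408) is 1.86-fold lower. Its call was lost with a median shift in place of quantile normalization (adjusted p = 0.0555). Hsd11b2, the enzyme that inactivates glucocorticoids, was dim: it had levels of 5.63, 5.09, 4.89, 5.27 and 5.44 in the DBP500 litters, against 5.39, 6.18 and 6.24 at the lowest, median and highest in the corn oil litters. It was detected in 1 of 5 DBP500 and 5 of 6 corn oil litters, and corn oil replicate 2 lay inside the DBP500 range. The difference was -0.79 (SE 0.18, adjusted p = 0.0318), and the call was lost without corn oil replicate 1, 3, 4, 5 or 6 or DBP500 replicate 2, 3 or 4 (adjusted p up to 0.158). In the 11 other settings that tested the probe the Hsd11b2 call was kept in 3 (adjusted p up to 0.468), with a difference as small as -0.25. In the whole list 11 genes were higher and 9 lower, with a median of 0.089. Hsd17b2, which oxidizes estradiol and testosterone, did not pass (0.54, adjusted p = 0.283) although its 5 DBP500 litters (7.57 to 8.39) lay above all corn oil litters (7.10 to 7.55). Lists of genes induced by glucocorticoids or androgens (15 tested, 9 higher and 6 lower, median 0.073) and of xenobiotic metabolism and oxidative stress (20 tested, 11 higher and 9 lower, median 0.025) held no gene that passed. Cyp1b1 was counted among the steroid genes and not in the xenobiotic list.

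The sequence just upstream of Cyp1b1 is shown because this gene is a well known target of the aryl hydrocarbon receptor. The 300 bases run from 250 before to 50 after the RefSeq start, chr6:21094315-21094614, plus strand, build GRCr8. Capitals mark the receptor's core letters GCGTG, searched on both strands.
Cyp1b1: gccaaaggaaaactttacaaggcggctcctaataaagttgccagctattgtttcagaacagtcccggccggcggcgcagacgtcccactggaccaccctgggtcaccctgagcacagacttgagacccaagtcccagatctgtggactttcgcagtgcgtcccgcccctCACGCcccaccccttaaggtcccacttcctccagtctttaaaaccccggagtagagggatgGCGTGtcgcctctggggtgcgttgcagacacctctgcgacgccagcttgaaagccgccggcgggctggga
The window held the letters once on each strand. They occur in 31.1% of all 27457 rat promoter windows in RefSeq and in 11 of the 21 called genes that have a window. They also occur in 24 of the 34 tested genes of the amino acid response, described below, that have a window. The differences between these shares were not tested.

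Scd and Elovl3, genes of fatty acid desaturation and elongation, rose in DBP500. Scd, a stearoyl-CoA desaturase that makes monounsaturated fatty acids, had levels of 9.12, 9.21, 9.37, 8.88 and 9.37 in the DBP500 litters, against 7.89, 8.08 and 8.60 at the lowest, median and highest in the corn oil litters. Here the groups did not overlap, and the difference of 1.003 (SE 0.21, adjusted p = 0.0137) is 2.004-fold. Its call was lost without corn oil replicate 4 or DBP500 replicate 3 (adjusted p up to 0.0523) and kept under all 12 other settings. Elovl3, an elongase of very long fatty acids found in sebaceous glands, had levels of 6.52, 7.23, 6.80, 7.33 and 6.99 in the DBP500 litters, against 5.16, 5.82 and 6.46 at the lowest, median and highest in the corn oil litters. It was detected in all 5 DBP500 and in 3 of 6 corn oil litters, and differed by 1.18 (SE 0.28, adjusted p = 0.0401). That call was lost without corn oil replicate 2, 4 or 5 or DBP500 replicate 2, 3, 4 or 5 (adjusted p up to 0.173). Of 19 tested genes of fatty acid synthesis and desaturation 13 were higher and 6 lower, with a median of 0.16. The mean level of the list, Scd and Elovl3 included, was 7.80 to 7.89 in DBP500 and 7.47 to 7.73 in corn oil litters. Averaged over litters it was 7.84 in DBP500 and 7.64 in their controls. In the other GD20 study it was 7.64 in DBP100 and 7.76 in its controls. Fads1, a delta-5 desaturase of polyunsaturated fatty acids, differed in the other direction from Scd, by -0.55 (adjusted p = 0.0566). All 5 DBP500 litters (7.71 to 8.11) lay below all corn oil litters (8.12 to 8.83). Scd and Elovl3 are also the only called genes of 11 tested hair follicle and sebaceous gland markers, of which 5 were higher and 6 lower (median -0.067). Cholesterol synthesis (17 tested, 6 higher and 11 lower, median -0.059) and fatty acid oxidation with targets of the peroxisome proliferator receptors (28 tested, 16 higher and 12 lower, median 0.074) held no gene that passed.

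In the epithelium, the tight junction gene Cldn4 rose, while the other markers stayed short of the threshold. Cldn4, which encodes claudin 4, had levels of 8.86, 8.70, 8.67, 8.64 and 8.67 in the DBP500 litters, against 7.57, 7.82 and 8.36 at the lowest, median and highest in the corn oil litters. All DBP500 litters were above all corn oil litters, a difference of 0.81 (SE 0.15, adjusted p = 0.00408) or 1.75-fold, and the call was kept without each array in turn and under all 12 other settings. Of 17 tested basal and simple epithelium markers 11 were higher and 6 lower, with a median of 0.16. Esrp1, an epithelial splicing regulator, differed by 0.32 (adjusted p = 0.283), with DBP500 litters at 10.66 to 10.87 and corn oil litters at 10.29 to 10.66. Of 21 tested markers of differentiated epidermis 19 were higher and 2 lower, with a median of 0.35, the highest of the 32 lists, and none passed. Those of smallest p were Sprr1a, a cornified envelope protein, at 0.88 (adjusted p = 0.327), the cornified envelope scaffold Evpl at 0.40 (adjusted p = 0.414), the surface antigen Ly6d at 0.40 (adjusted p = 0.443) and the mucosal keratin Krt4 at 0.59 (adjusted p = 0.474). The mean level of the epidermal list was 7.63 to 8.19 in DBP500 and 7.27 to 7.77 in corn oil litters. Averaged over litters it was 7.93 in DBP500 and 7.59 in their controls, and in the other GD20 study 7.93 in DBP100 and 8.23 in its controls. With the controls of both GD20 studies pooled, the median of the epidermal list was 0.014. In whole tissue, a change in the number of cells of a type and a change in RNA per cell cannot be told apart.

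Smooth and skeletal muscle each held 1 gene that fell. Tagln, the smooth muscle actin-binding protein transgelin, had levels of 9.54, 9.24, 9.23, 9.38 and 9.15 in the DBP500 litters, against 9.87, 10.02 and 10.12 at the lowest, median and highest in the corn oil litters. No litters overlapped, and the difference was -0.70 (SE 0.15, adjusted p = 0.0214), or 1.63-fold lower. The call was lost without corn oil replicate 4 or DBP500 replicate 2, 3, 4 or 5 (adjusted p up to 0.0756). Tagln also lost it with a median shift, with the replicate number as a block and with all 12 corn oil litters of GD20 as controls (adjusted p up to 0.31). Of 17 tested smooth muscle markers 4 were higher and 13 lower, with a median of -0.12. Des, the muscle intermediate filament desmin, differed by -0.63 (adjusted p = 0.234), with DBP500 litters at 8.85 to 9.20 and corn oil litters at 9.40 to 9.98. The smooth muscle actin Actg2 differed by -0.50 (adjusted p = 0.569), and at PND5 by -0.58. The mean level of the smooth muscle list, Tagln included, was 8.46 to 8.57 in DBP500 and 8.53 to 8.72 in corn oil litters. Averaged over litters it was 8.49 in DBP500 and 8.66 in their controls. In the other GD20 study it was 8.52 in DBP100 and 8.48 in its controls.

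Dhrs7c, a reductase of the sarcoplasmic reticulum of striated muscle, had levels of 8.84, 8.62, 9.01, 8.95 and 8.55 in the DBP500 litters, against 9.27, 9.74 and 10.14 at the lowest, median and highest in the corn oil litters. There was no overlap, and the difference was -0.93 (SE 0.20, adjusted p = 0.0164), or 1.90-fold lower. The call was lost without corn oil replicate 4 or 6 or DBP500 replicate 2 or 5 (adjusted p up to 0.0673). Of 29 tested skeletal muscle markers 6 were higher and 23 lower, with a median of -0.32, the lowest of the 32 lists. The mean level of this list overlapped, at 5.82 to 6.45 in DBP500 and 5.95 to 7.20 in corn oil litters. Single markers varied widely between litters: the embryonic myosin Myh3 was 5.15 to 8.35 in DBP500 and 5.77 to 9.91 in corn oil litters (difference -1.58, adjusted p = 0.602). Tnnc1, the troponin C of slow muscle, differed by -1.08 (adjusted p = 0.343). The part of the amount of muscle in the Dhrs7c difference was not tested.

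**Figure D2:**
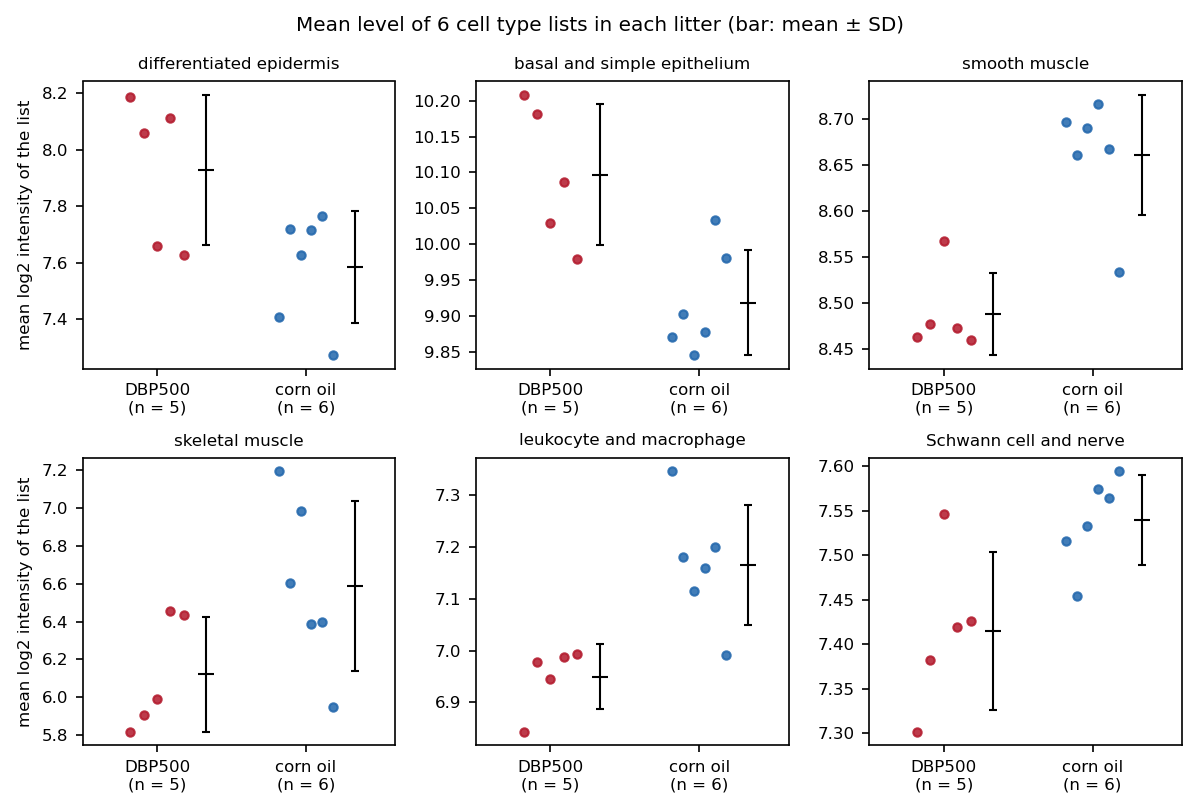
Mean log2 intensity over the tested members of 6 cell type lists (y axis, not starting at 0 and scaled for each list) in the 5 DBP500 litters (red, left) and the 6 corn oil litters (blue, right). Points are litters and bars the mean ± SD. The litters of the groups overlap in each of the lists shown, from 7.63 to 8.19 against 7.27 to 7.77 for differentiated epidermis down to 5.82 to 6.45 against 5.95 to 7.20 for skeletal muscle.

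Among matrix genes Ltbp2 and Spock1 fell and Mia rose. Ltbp2, a latent TGF-beta binding protein of elastic microfibrils, had levels of 8.85, 8.93, 8.83, 8.98 and 8.97 in the DBP500 litters, against 9.54, 9.76 and 10.04 at the lowest, median and highest in the corn oil litters. The groups did not overlap and the DBP500 litters lay within a narrow range. The difference was -0.86 (SE 0.18, adjusted p = 0.0139), or 1.82-fold lower. The call was kept without each array in turn and lost with a median shift (adjusted p = 0.357). Of 16 tested genes of microfibrils and elastic fibres 5 were higher and 11 lower, with a median of -0.12. Mfap5 and Mfap4, both microfibril-associated proteins, differed by -0.63 (adjusted p = 0.234) and -0.37 (adjusted p = 0.593), and Efemp1, a fibulin, by 0.75 (adjusted p = 0.224).

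Spock1, the proteoglycan testican 1, had levels of 5.98, 5.55, 5.91, 6.12 and 6.04 in the DBP500 litters, against 6.42, 6.94 and 7.38 at the lowest, median and highest in the corn oil litters. The groups did not overlap, and the difference was -1.01 (SE 0.21, adjusted p = 0.0125), or 2.01-fold lower, a call lost without DBP500 replicate 2 (adjusted p = 0.0656). Mia, a secreted protein of cartilage and melanoma cells, was detected in 4 DBP500 litters and in no corn oil litter. It had levels of 6.27, 5.33, 6.08, 6.62 and 6.76 in the DBP500 litters, against 5.25, 5.38 and 5.43 at the lowest, median and highest in the corn oil litters. DBP500 replicate 2 lay inside the corn oil range. Since the corn oil litters give only a bound, Mia was at least 1.53-fold higher (adjusted p = 0.0155), set against the detection limit of the corn oil arrays, and the call was lost without DBP500 replicate 4 or 5 (adjusted p up to 0.106). Of 24 tested collagens and other matrix genes 13 were higher and 11 lower, with a median of 0.012. Thbs2, the matricellular protein thrombospondin 2, differed by -0.86 (adjusted p = 0.131).

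Among growth factor and guidance genes Pdgfra rose, and Slit1 and Id2 fell. Pdgfra, a receptor for platelet-derived growth factors on mesenchymal cells, had levels of 10.40, 10.47, 11.01, 10.45 and 10.18 in the DBP500 litters, against 9.30, 9.57 and 10.11 at the lowest, median and highest in the corn oil litters. The groups did not overlap, although the gap was narrow, and the difference of 0.85 (SE 0.17, adjusted p = 0.0125) is 1.80-fold. Its call was lost without DBP500 replicate 3 (adjusted p = 0.0756). Of 24 tested genes of FGF, PDGF and EGF signalling 15 were higher and 9 lower, with a median of 0.052, and the ligand gene Pdgfd differed by -0.48 (adjusted p = 0.563).

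Slit1, a secreted guidance cue that binds Robo receptors, had levels of 5.87, 5.10, 5.60, 5.20 and 4.91 in the DBP500 litters, against 5.53, 6.59 and 6.85 at the lowest, median and highest in the corn oil litters. It was detected in 2 of 5 DBP500 and 5 of 6 corn oil litters, and the lowest corn oil litter lay inside the DBP500 range. The difference was -1.04 (SE 0.21, adjusted p = 0.0116). The call was kept without each array in turn, but in the 11 other settings that tested the probe it was kept in 5 (adjusted p up to 0.513). Of 25 tested axon guidance genes 10 were higher and 15 lower, with a median of -0.046. Efnb1, a membrane-bound ephrin, differed by -0.38 (adjusted p = 0.453), Sema3f by -0.31 (adjusted p = 0.423) and Slit3 by -0.40 (adjusted p = 0.48).

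Id2, an inhibitor of basic helix-loop-helix factors induced by bone morphogenetic proteins, had levels of 12.63, 12.36, 12.48, 12.23 and 12.56 in the DBP500 litters, against 12.78, 12.90 and 13.04 at the lowest, median and highest in the corn oil litters. The groups did not overlap. The difference of -0.45 (SE 0.11, adjusted p = 0.0464), or 1.37-fold lower, was lost without any 1 array except DBP500 replicate 1 (adjusted p up to 0.232). Of 27 tested TGF-beta and BMP genes 8 were higher and 19 lower, with a median of -0.11. The mean level of the list, Id2 included, was 8.03 to 8.10 in DBP500 and 8.12 to 8.26 in corn oil litters. Averaged over litters it was 8.06 in DBP500 and 8.19 in their controls. In the other GD20 study it was 8.03 in DBP100 and 8.15 in its controls. Gdf10, a TGF-beta family ligand, had 7.93 to 8.43 in DBP500 and 8.79 to 9.32 in corn oil litters and differed by -0.92 (adjusted p = 0.081). Fst, an activin antagonist, differed by -0.42 (adjusted p = 0.435) and Tgfb2, a TGF-beta ligand, by -0.44 (adjusted p = 0.435).

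Of 25 tested Wnt pathway genes 8 were higher and 17 lower, with a median of -0.064 and none past the threshold. Wnt4, a Wnt ligand, lay at 10.09 to 10.42 in DBP500 and 10.46 to 10.96 in corn oil litters, a difference of -0.49 (adjusted p = 0.297), and its DBP100 difference at GD20 was also -0.49. Dkk3, a secreted protein of the dickkopf family, differed by 0.66 (adjusted p = 0.131) and in DBP100 by 0.77. Rspo3, which strengthens Wnt signals, differed by -0.41 (adjusted p = 0.51). Of 6 tested hedgehog pathway genes 1 was higher and 5 lower, with a median of -0.053. Hhip, a hedgehog-binding protein induced by the pathway, had 7.50 to 8.22 in DBP500 and 8.57 to 8.97 in corn oil litters without passing (-0.89, adjusted p = 0.51), and at PND5 it differed by -1.26. In the retinoid list (15 tested, 7 higher and 8 lower, median -0.0011) Gprc5a, a membrane receptor induced by retinoic acid, rose by 0.91 (SE 0.21, adjusted p = 0.0274). It had levels of 6.78, 5.65, 5.37, 6.19 and 5.11 in the DBP500 litters, against 4.70, 4.81 and 5.54 at the lowest, median and highest in the corn oil litters. Gprc5a was detected in 3 of 5 DBP500 and 1 of 6 corn oil litters, the groups overlapped, and the call was lost without DBP500 replicate 1 or 4 or any corn oil replicate except 5 (adjusted p up to 0.195). Cyp26b1, which breaks down retinoic acid, differed by 0.48 (adjusted p = 0.324).

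**Figure D3:**
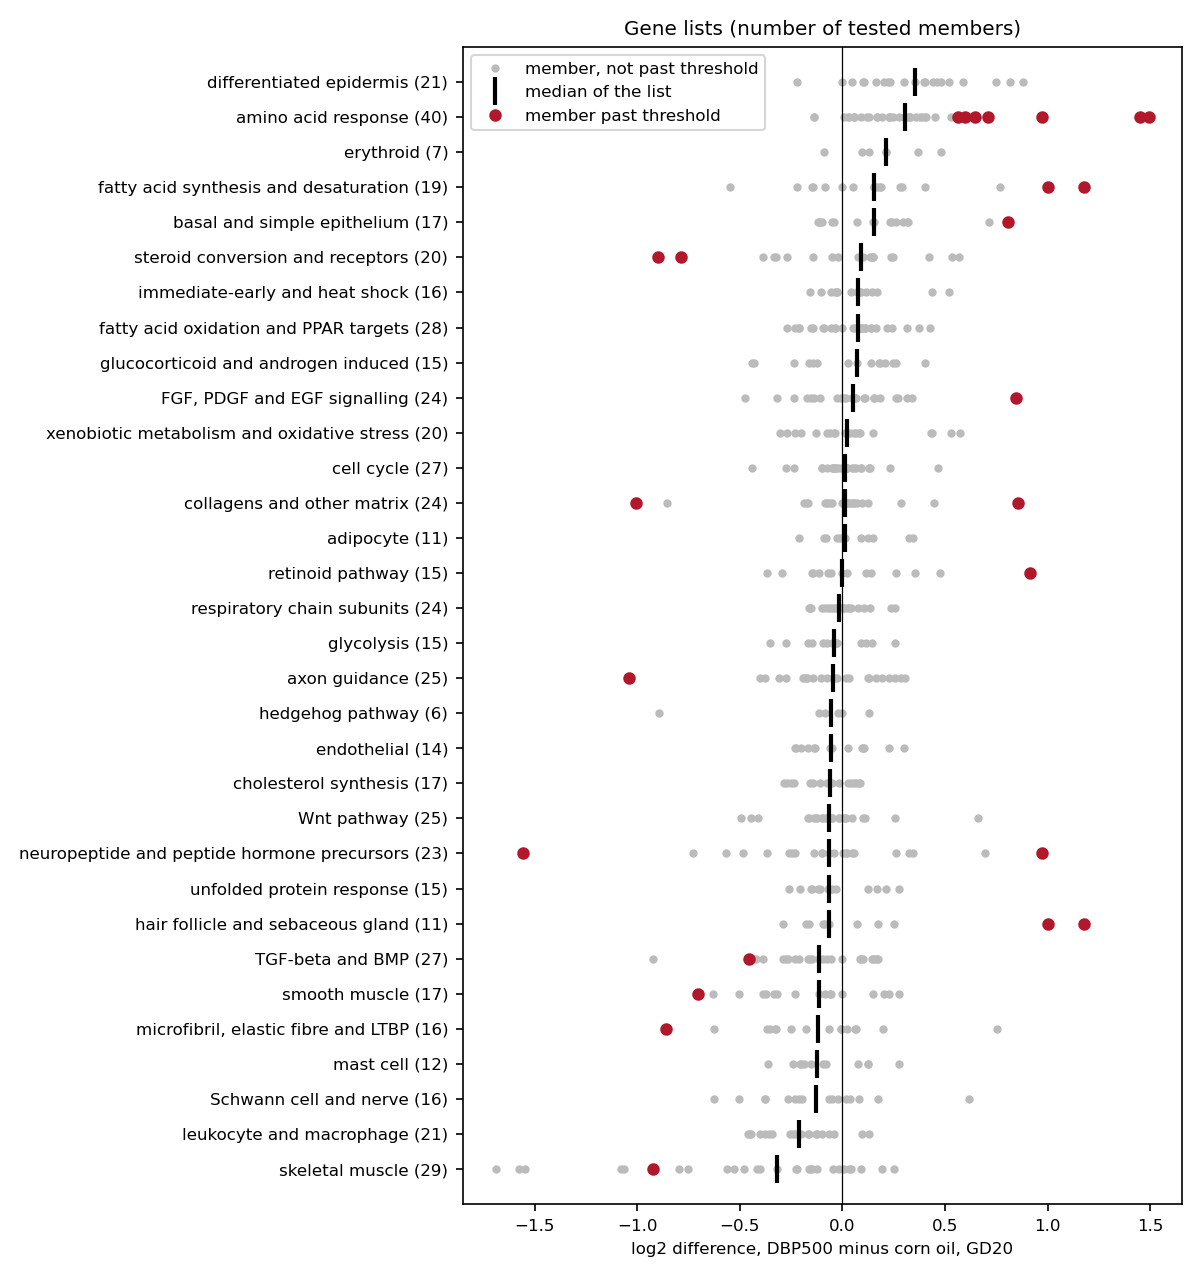
Log2 difference between DBP500 and corn oil litters on GD20 (x axis) for the tested members of 32 gene lists (y axis, number tested in parentheses), ordered by the list median (black bar). Grey points did not pass an adjusted p of 0.05 and red points did. The medians run from -0.32 for skeletal muscle to 0.35 for differentiated epidermis. The amino acid response, the largest list with 40 tested members, holds 7 red points. Of all tested probes 0.302% passed.

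The amino acid response, through which cells short of amino acids or under stress raise genes by way of the factor ATF4, held 7 called genes, all higher: Asns (1.45), Nupr1 (1.496), Adm2 (0.97), Psph (0.65), Lars1 (0.56), Cars1 (0.60) and Atf5 (0.71). Of its 40 tested members 38 were higher, with a median of 0.31. The mean level of the list, the 7 called genes included, was 8.81 to 9.14 in DBP500 against 8.56 to 8.70 in corn oil litters. Adm2, which encodes the peptide adrenomedullin 2, was detected in all 5 DBP500 litters and no corn oil litter, at least 1.24-fold higher, and the Atf5 call held only without DBP500 replicate 1 or 5, while that of Cars1 was lost without corn oil replicate 1 or 4 or DBP500 replicate 3, 4 or 5.

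Promoter windows of Nupr1 (chr1:190645852-190646151, minus strand, GRCr8) and Cars1 (chr1:208225320-208225619, minus strand, GRCr8) are shown because, of the 21 called genes that have a window, these hold the letters of the C/EBP-ATF response element, through which ATF4 binds. Capitals mark TGATGNAAN, searched on both strands and here found on the opposite one.
Nupr1: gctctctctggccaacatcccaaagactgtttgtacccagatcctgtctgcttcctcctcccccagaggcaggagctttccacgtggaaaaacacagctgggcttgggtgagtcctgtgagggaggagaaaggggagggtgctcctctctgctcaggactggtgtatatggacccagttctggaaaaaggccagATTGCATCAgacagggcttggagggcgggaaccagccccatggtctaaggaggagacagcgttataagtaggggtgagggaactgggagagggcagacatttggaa
Cars1: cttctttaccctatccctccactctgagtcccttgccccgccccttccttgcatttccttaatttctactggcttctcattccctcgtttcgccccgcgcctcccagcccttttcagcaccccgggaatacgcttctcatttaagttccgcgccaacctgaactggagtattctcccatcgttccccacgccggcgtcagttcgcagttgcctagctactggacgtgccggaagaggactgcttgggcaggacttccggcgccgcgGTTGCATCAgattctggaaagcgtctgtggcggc
The letters occur in 3.8% of the 27457 RefSeq windows, in 11 of the 34 tested members of the amino acid list that have a window, and in 0 of 14 called genes outside that list that have one. No match says only that the letters are not in this window.

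The remaining called genes with a symbol fall in none of the lists. Slc26a4, the anion exchanger pendrin, had levels of 7.12, 6.92, 6.26, 7.18 and 5.89 in the DBP500 litters, against 4.77, 5.49 and 6.78 at the lowest, median and highest in the corn oil litters. It was detected in 5 of 5 DBP500 and 2 of 6 corn oil litters, differed by 1.16 (SE 0.24, adjusted p = 0.0125) with overlap, and lost the call without DBP500 replicate 1 or 4 (adjusted p up to 0.0755). Kcna4, a voltage-gated potassium channel, had levels of 6.02, 5.95, 6.44, 5.24 and 5.86 in the DBP500 litters, against 4.94, 5.01 and 5.48 at the lowest, median and highest in the corn oil litters, so that DBP500 replicate 4 lay inside the corn oil range. It was detected in 4 DBP500 litters and no corn oil litter, which gives at least 1.23-fold higher (adjusted p = 0.00408), and its call was kept without each array in turn. In the 11 other settings that tested the probe the Kcna4 call was kept in 7 (adjusted p up to 0.18), with a difference down to 0.26 against 0.83 as reported here, and it was lost with a median shift, with the authors' processed values, and with only the compared arrays fitted or only the 11 arrays normalized.

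Fut1, a fucosyltransferase that makes the H antigen, and Ndrg1, a gene raised by hypoxia and differentiation, had non-overlapping groups. Fut1 was 8.45 to 8.85 in DBP500 and 7.58 to 8.29 in corn oil litters, a difference of 0.72 (SE 0.16, adjusted p = 0.0285). Ndrg1 was 9.68 to 10.23 in DBP500 and 9.14 to 9.67 in corn oil litters, a difference of 0.60 (SE 0.14, adjusted p = 0.0334). Tp53inp1, a target of p53, was 6.15 to 6.93 in DBP500 and 5.32 to 6.08 in corn oil litters, a difference of 0.81 (SE 0.19, adjusted p = 0.0304). The Fut1 call held in 3 of the 11 fits without 1 array (without corn oil replicate 1 or 6 or DBP500 replicate 2). The Ndrg1 call held in 2 (without corn oil replicate 3 or DBP500 replicate 5) and the Tp53inp1 call in 5 (without corn oil replicate 2, 3 or 6 or DBP500 replicate 4 or 5). Marf1, an RNA-regulating protein known from mouse oocytes, and Eif4b, a translation initiation factor, rose by 0.53 (SE 0.11, adjusted p = 0.0125) and 0.52 (SE 0.11, adjusted p = 0.0167), both without overlap, and both lost the call without corn oil replicate 4 or DBP500 replicate 3. C2cd5, a protein of insulin-stimulated glucose transporter traffic, rose by 0.91 (SE 0.19, adjusted p = 0.0155) and Tmem67, a protein of the ciliary transition zone, by 0.73 (SE 0.17, adjusted p = 0.0464), both with overlap and detected in 1 of 6 corn oil litters. C2cd5 lost its call without corn oil replicate 5 or DBP500 replicate 3, 4 or 5, and Tmem67 without any 1 array except DBP500 replicate 5.

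On the lower side, Btnl7, detected in 2 of 5 DBP500 and 6 of 6 corn oil litters, was 4.94 to 5.75 in DBP500 and 5.77 to 7.02 in corn oil litters, a difference of -1.05 (SE 0.24, adjusted p = 0.0335). Necab2, a neuronal calcium-binding protein detected in 3 of 5 DBP500 and 6 of 6 corn oil litters, was 5.12 to 6.02 in DBP500 and 5.85 to 7.06 in corn oil litters, a difference of -0.97 (SE 0.21, adjusted p = 0.0229). The Btnl7 call held only without corn oil replicate 2 or 6 or DBP500 replicate 3, and the Necab2 call was lost without corn oil replicate 2, 4 or 6 or DBP500 replicate 3 or 4. Among the other settings both differences shrank to as little as -0.39. Of the 8 called probes with no symbol, all but 2 were lower in DBP500. Closest outside the threshold were Pitx1, a homeobox factor of hindlimb and pituitary, at -1.15 (adjusted p = 0.0525), the olfactory receptor gene Or2y12 at -0.54 (adjusted p = 0.0525) and Fads1 at -0.55 (adjusted p = 0.0566). Closest inside were Tmem67 and Id2, both at an adjusted p of 0.0464. Pitx1 and Or2y12 belong to no list and were named after their values were seen.

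Markers of other cells in the tissue were measured beside these genes. Of 21 tested leukocyte and macrophage markers 2 were higher and 19 lower, with a median of -0.21 and none past the threshold. The mean level of this list was 6.84 to 6.99 in DBP500 and 6.99 to 7.35 in corn oil litters. The complement genes C1qa (-0.45, adjusted p = 0.234) and C1qb (-0.38, adjusted p = 0.443), the microglial and macrophage marker Aif1 (-0.45, adjusted p = 0.299) and the leukocyte tetraspanin Cd53 (-0.46, adjusted p = 0.636) had the smallest p values. Schwann cell and nerve markers (16 tested) were higher in 5 and lower in 11, with a median of -0.13. Mast cell markers (12 tested) had 4 higher and 8 lower, median -0.12. Endothelial markers (14 tested) had 6 higher and 8 lower, median -0.056. Adipocyte markers (11 tested) had 6 higher and 5 lower, median 0.011. Erythroid genes (7 tested) had 6 higher and 1 lower, median 0.21. None of these held a called gene, and the part of cell type shares in the differences of single genes was not tested.

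Lists of general cell programmes had medians from -0.067 to 0.074, where the median of all probes was 0.0016. Cell cycle genes (27 tested) had 14 higher and 13 lower, median 0.014. Glycolysis (15 tested) had 4 higher and 11 lower, median -0.041, and respiratory chain subunits (24 tested) 10 higher and 14 lower, median -0.018. Immediate-early and heat shock genes (16 tested) had 10 higher and 6 lower, median 0.074. Genes of the unfolded protein response (15 tested) had 4 higher and 11 lower, median -0.067. No member of these 5 lists passed.

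The 41 probes were then set against the lower dose at the same age and the same dose at PND5, each with its own corn oil litters and no shared array. None of the 41 passed for DBP100 at GD20, where 80 of 13577 probes passed (0.589%), and none for DBP500 at PND5, where 498 passed (3.67%). The sign was shared by 19 of the 41 with DBP100 and by 20 with PND5. Across all tested probes the differences correlated at r = -0.063 with those of DBP100 at GD20 and at r = -0.0025 with those of DBP500 at PND5, as a description over probes that share arrays and are not independent.

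**Figure D4:**
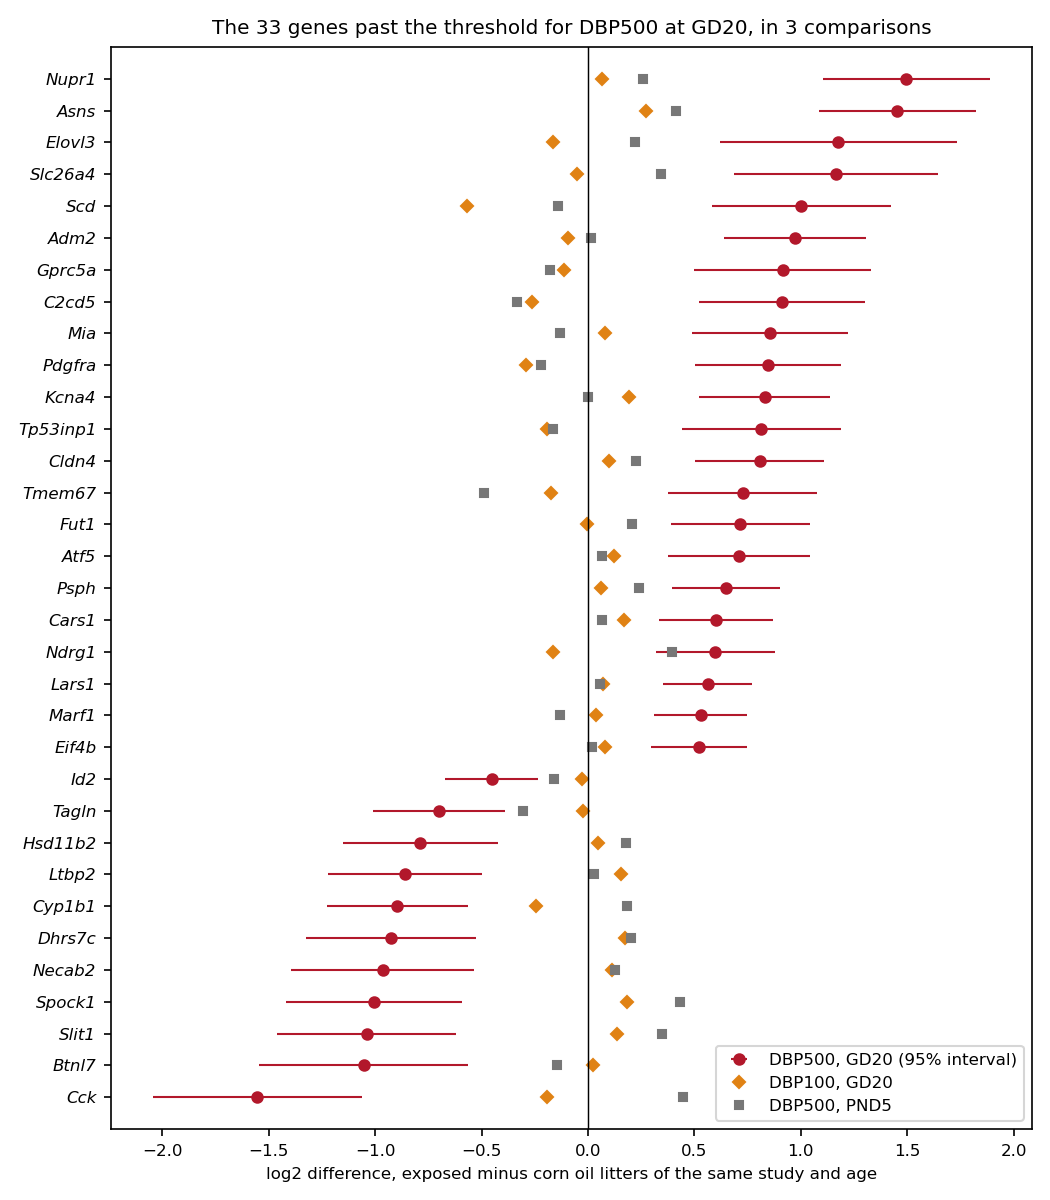
Log2 difference between exposed and corn oil litters (x axis) for the 33 named genes past the threshold for DBP500 on GD20 (y axis). Red points with 95% intervals are DBP500 on GD20, which chose the genes, orange diamonds DBP100 on GD20 and grey squares DBP500 on PND5. Cck sits at -1.55 in DBP500 on GD20, at -0.19 in DBP100 on GD20 and at 0.45 in DBP500 on PND5.

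The difference between doses was tested as a difference of differences in the same fit, and 18 of all probes passed (0.133%), 7 of them among the 41. These 7 include Scd, whose difference was 1.003 in DBP500 and -0.57 in DBP100, and Pdgfra, at 0.85 in DBP500 and -0.29 in DBP100, besides Asns, Nupr1 and Adm2. Pomc, which is not among the 41, passed this test too, at -0.48 in DBP500 and 0.50 in DBP100 (adjusted p = 0.047). The 41 were selected on the DBP500 difference, which is part of this test, so the count is a description. Leaving out 1 array gave 0 to 126 probes in place of 18, a change of over 1.5 times for 19 of 22 arrays. Corn oil replicates 1 and 3 of the DBP100 study and DBP500 replicate 5 were the exceptions. Dose and study cannot be told apart here, since each dose was run with its own controls.

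Between the ages, 56 probes passed for DBP500 (0.412%), 16 of them among the 41, again a set selected on 1 side of the test. Cck differed by -1.55 at GD20 and 0.45 at PND5, Spock1 by -1.01 at GD20 and 0.43 at PND5, and Slit1 by -1.04 at GD20 and 0.35 at PND5. Cyp1b1 differed by -0.90 at GD20 and 0.18 at PND5, and Dhrs7c by -0.93 at GD20 and 0.20 at PND5. Among the genes that rose at GD20, Tmem67 differed by 0.73 at GD20 and -0.49 at PND5, and C2cd5 by 0.91 at GD20 and -0.34 at PND5. Gdf10, not among the 41, passed as well, at -0.92 at GD20 and 0.46 at PND5 (adjusted p = 0.0314). Leaving out 1 array gave 11 to 98 probes, and 14 of the 25 arrays moved the count by more than 1.5 times. These were corn oil replicates 1, 2, 4 and 5 and DBP500 replicates 1 to 4 of GD20, and corn oil replicates 2 and 4 and DBP500 replicates 2, 3, 5 and 7 of PND5. Dosing stopped before the PND5 litters were taken, so age and time since the last dose cannot be told apart. The brightest raw signal per array was 43294 to 55729 on the 11 GD20 arrays and 15335 to 29459 on the 14 PND5 arrays. Each difference was taken within 1 age, and the part of this array difference was not tested.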

How the data were processed

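The deposited non-normalized table gives, per the file headers, a bead intensity with its detection p-value for 22523 probes on 43 arrays. Processed intensities of the authors stand in another deposited table. The submitters' processing notes name limma. Each array is 1 litter, grouped by its title.

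From the raw intensities, limma 3.58.1 in R 4.3.3 estimated each array's background from the detection p-values (offset 16), quantile-normalized the 43 arrays together and took log2 values. Probes with a detection p under 0.05 on at least 5 arrays were tested, which kept 13577 (60.3%). A model with 1 mean for each of 7 groups was fitted, the spread moderated with eBayes, and p-values, two-sided, adjusted by Benjamini-Hochberg over all tested probes. SE is that of the model. The number of arrays limits the precision. Intervals are 95%. The model fit was tested on simulated log2 values with independent errors. That simulation held no background or normalization step and no outlying array.

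A probe detected on no array of a group has only a bound there, and its fold is given as at least the brighter mean over the detection limit of the dimmer arrays. Of the probes, 13793 carry 1 symbol in the platform annotation and 8730 none, and 13752 were matched to RefSeq (GRCr8). A gene stands in a list with its tested probe of highest mean. The members and the 32 lists were chosen with earlier results of these data known, so list counts and medians are descriptions. All called genes with a symbol are named, and of each list up to 4 members of smallest p. Promoter windows were matched by gene ID, and 21 of 33 called genes have one.

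Litters with the same replicate number in the 2 groups were not treated as pairs: the correlation of their deviations exceeded 0.1 in 1 of 5 numbers. Alternatives were no background correction, offset 50, median scaling, the authors' table, other filters, fits and controls, and leaving out each array.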

Additional observations from a re-analysis of the deposited data

Results flagged for a closer look

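Of 66 groups of litters checked for the 33 called genes, 7 held an array whose gap to the next was large against the range of its group, and chance gives about 1 in 20. Adm2 was 6.52 in DBP500 replicate 3, the other DBP500 litters lying at 5.69 to 5.90. Cldn4 was 8.86 in DBP500 replicate 1, against 8.64 to 8.70 in the other DBP500 litters. Kcna4 was 5.48 in corn oil replicate 3, against 4.94 to 5.05 in the other corn oil litters, and Gprc5a was 5.54 in corn oil replicate 5, against 4.70 to 4.82. Hsd11b2 was 5.39 in corn oil replicate 2, the other corn oil litters lying at 6.12 to 6.24. Tmem67 was 5.32 in DBP500 replicate 5, against 6.17 to 6.41 in the other DBP500 litters, and 4.90 in corn oil replicate 5, against 5.33 to 5.57.

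For 6 of the genes named in the text, 5 of them among the 33 called, the DBP500 difference at GD20 differed from the DBP100 difference at GD20 past the threshold of limma's test of the difference itself. The difference of differences was 1.18 for Asns, 1.43 for Nupr1, 1.07 for Adm2, 1.14 for Pdgfra and 1.57 for Scd (adjusted p 0.0401 to 0.044), and -0.98 for Pomc (adjusted p 0.047).

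For 16 genes named in the text, 15 of them among the 33 called, the DBP500 difference at GD20 differed from that at PND5 in the same kind of test. Among those higher at GD20 it was 1.04 for Asns, 1.24 for Nupr1, 0.96 for Adm2, 0.83 for Kcna4, 1.07 for Pdgfra, 0.66 for Marf1, 1.14 for Scd, 1.25 for C2cd5, 0.99 for Mia and 1.22 for Tmem67. Among those lower at GD20 it was -2.001 for Cck, -1.08 for Cyp1b1, -1.39 for Slit1, -1.44 for Spock1, -1.13 for Dhrs7c and, of the genes not called, -1.38 for Gdf10. The adjusted p ran from 0.00315 for Cck to 0.0475 for Kcna4.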

How the results depend on the processing

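No called gene changed direction in any of the 11 fits without 1 array or the 12 other settings. Of the 33 named genes, 11 passed without each array in turn, 5 passed under all 12 other settings that tested them (Asns, Nupr1, Cck, Cldn4 and Scd), and 4 in both. The count of 41 probes for DBP500 at GD20 became 18 with a median shift in place of quantile normalization, 197 with array weights and 106 with all 12 corn oil litters of GD20 as controls, and it was 22 to 40 without 1 array. With the replicate number as a block it was 24, of which 21 were among the 41; every other setting lay between 33 and 51. The authors' table gave 51, of which 22 were shared.

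The count of 18 for the dose difference became 7 with no background correction, 0 with a median shift, 0 with no detection filter, 2 with only the compared arrays in the fit, 4 with a trended and robust spread, 564 with array weights and 0 with the replicate block, and it was 0 to 126 without 1 array. The count of 56 for the age difference became 4 with a median shift, 264 with array weights and 29 with the replicate block, and it was 11 to 98 without 1 array. The causes were not tested.

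Of 35 named genes that did not pass, 18 passed under at least 1 alternative, Gdf10 under 8 and Pitx1 under 7 of the settings other than leaving out an array. With all 12 corn oil litters as controls Ly6d turned to -0.040 and Mfap4 to 0.062. In that setting the medians of the glucocorticoid and androgen, FGF, PDGF and EGF, neuropeptide, unfolded protein, hair follicle, cell cycle, retinoid and respiratory chain lists also changed sign. Of the called genes Adm2, Kcna4, Mia, Hsd11b2, Slit1, Gprc5a, Tmem67, C2cd5, Slc26a4, Elovl3, Tp53inp1, Btnl7 and Necab2 were not detected on all 11 arrays, which limits the precision of their differences.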
